A study of Drosophila melanogaster with 28 samples.

Results

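MSL2 and CLAMP were precipitated from one reconstituted mixture, with an antibody to each protein, and the 2 peak lists were compared. A peak of one list was shared if it overlapped a peak of the other by at least 1 bp, which sorted the peaks into 3 classes. There were 108 regions found with both antibodies, 358 found with the MSL2 antibody and not the CLAMP antibody (MSL2-only), and 321 found with the CLAMP antibody and not the MSL2 antibody (CLAMP-only). These 787 regions came from 466 MSL2 peaks and 429 CLAMP peaks, and all 9 lists of the series together make up 1098 regions. Overlap chose the classes, so it is described and not tested.

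The template was genomic DNA purified from BG-3 cells, a Drosophila line of the larval central nervous system, and assembled into chromatin for 5 h. MSL2 and CLAMP together were bound to it for 30 min, followed by crosslinking and partial MNase digestion. The MSL2 precipitation comprised 3 libraries and the CLAMP precipitation 2, each called against the negative control of its own antibody, whose labels name no added protein. Lists of FLAG-tag precipitations with CLAMP alone or a CLAMP mutant alone (2 libraries each), of MSL2 alone (3) and of CLAMP alone (2) are used for comparison. The other 3 lists, which enter only where a region is looked up in all 7 remaining lists, are the mutant alone with the CLAMP antibody (2) and MSL2 with the mutant, precipitated with the MSL2 (3) or the CLAMP antibody (2). All groups share the DNA of 1 cell line. The labels name no other subunit of the complex and do not describe the mutation.

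MSL2 is the DNA-binding RING finger subunit of the male-specific lethal complex, which doubles as an E3 ubiquitin ligase and brings the complex to the male X chromosome. CLAMP recognises GA repeats through its zinc fingers on all chromosomes and is known to help the complex reach its X-linked entry sites. In flies the complex acetylates histone H4 on X-linked genes and includes the noncoding RNAs roX1 and roX2, whose genes are themselves entry sites.

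The MSL2 list rested on 14660145 tags and the CLAMP list on 3875205, a ratio of 3.78. A putative peak needed 36 tags in the first and 16 in the second, and the called peaks held 504 and 56.7 tags on average. Peaks held 1.60% of the MSL2 tags and 0.627% of the CLAMP tags. The comparison with the negative control removed 28716 of 29243 putative MSL2 peaks and 8551 of 9080 putative CLAMP peaks. A region missing from one list therefore fell under a filter, and its occupancy by that protein is not known to be zero. Each group has 1 merged list, so no value here has replicate error. Intervals in brackets are exact (Clopper-Pearson) 95% intervals that cover the counting of peaks alone and treat peaks as independent.

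The 2 lists met at a minority of their peaks. The 108 pairs were 23.2% of the MSL2 peaks (19.4 to 27.3) and 25.2% of the CLAMP peaks (21.1 to 29.6), and no peak of either list overlapped more than 1 peak of the other. On X, 68 of 203 MSL2 peaks (33.5%, 27 to 40.4) and 68 of 222 CLAMP peaks (30.6%, 24.6 to 37.1) were shared. On the autosome arms these were 39 of 251 (15.5%, 11.3 to 20.6) and 39 of 206 (18.9%, 13.8 to 25). For the MSL2 list the X and autosome intervals lie apart, and for the CLAMP list they meet.

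Where both proteins gave a peak, the peaks mostly lay on nearly the same bases. HOMER gives every peak one fixed width, set here to 150 bp, and only 1 MSL2 peak, of 38 bp, differed, so pairs with centres up to 150 bp apart overlapped. The median distance between the MSL2 centre and the CLAMP centre was 18 bp over the 108 pairs (95% interval of the median 12 to 25, quartiles 2.75 and 54). In 42 pairs the centres were within 10 bp (38.9%, 29.7 to 48.7), in 79 within 50 bp, and in 10 more than 100 bp apart. The MSL2 centre had the higher coordinate in 52 pairs, the lower in 50 and the same in 6, and the mean signed offset was -2.78 bp (SD 51.5 over pairs). On X the median distance was 22.5 bp (12 to 35, 68 pairs) and on the autosome arms 12 bp (4 to 20, 39 pairs), with intervals that overlap. Among the 45 pairs left when each list was cut to its first 50% in file order, the median was 8 bp.

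**Figure D1:**
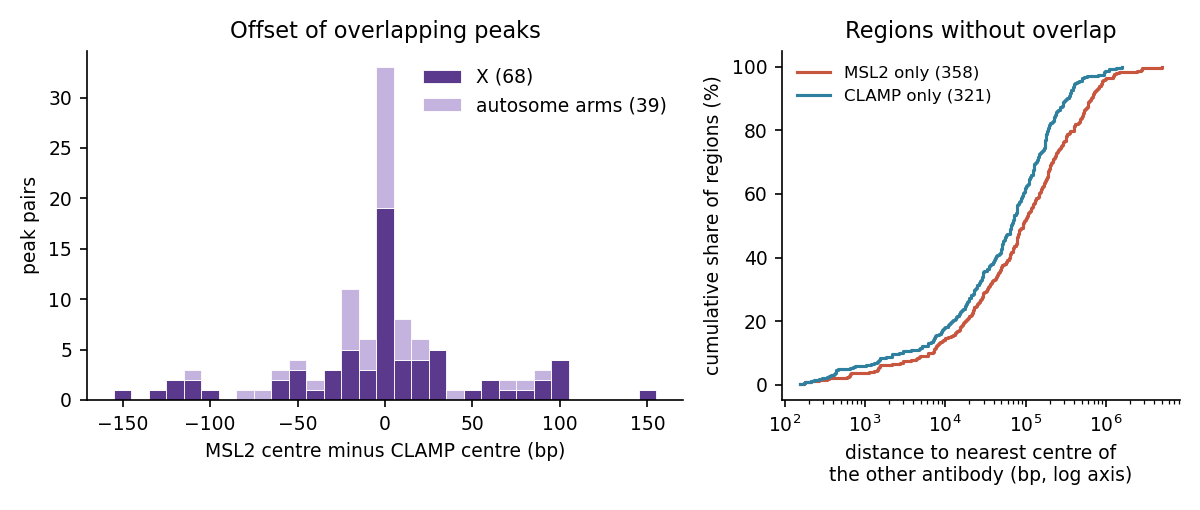
Left, histogram of the MSL2 centre minus the CLAMP centre (bp, bins of 10 bp) for overlapping pairs on X (68) and on the autosome arms (39). Right, cumulative share of the 358 MSL2-only and 321 CLAMP-only regions by distance to the nearest centre of the other antibody (bp, log axis). Pairs pile up at 0 on the left, and on the right few regions without overlap lie within 1000 bp of the other antibody.

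Exact coincidence, with both centres on one base, was seen in 6 pairs. One was in roX2, the X-linked noncoding RNA gene of the complex (X 11580230 to 11580380), near the upper end of the gene body (11579065 to 11580432). Another lay in Sh, the Shaker potassium channel gene (X 17997305 to 17997455). The autosomal ones lay in tei, a gene of the immunoglobulin family (2R 13629690 to 13629840), in CG15022 (3L 4459974 to 4460124), in Pzl, a Piezo-like channel gene (3R 3033551 to 3033701), and 253 bp from croc, a forkhead factor of head development (3L 21476732 to 21476882). The roX2 region was called in 1 of the other 7 lists, that of MSL2 alone, and the Sh region in none of them. The tei region was called in 4, among them both FLAG lists.

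At the edge of the definition stood pairs that overlapped by a few bases. The pair in Pits overlapped by 5 bp (X 12582884 to 12583180, centres 146 bp apart) and that in CG34408 by 6 bp (X 10224687 to 10224982, 145 bp apart). Offsets of 135 bp in Cph, a zinc finger factor (X 7154137 to 7154422), 125 bp in eag, a potassium channel (X 14978961 to 14979236), and 121 bp in OdsH, a homeobox gene (X 17812338 to 17812609), followed. All 5 of these largest offsets were on X, which held 68 of the 108 pairs. In the CG34408 region the centre of the FLAG CLAMP peak lay 40 bp from the MSL2 centre and 105 bp from the CLAMP centre, between them. In OdsH it lay 16 bp from the MSL2 centre and 137 bp from the CLAMP centre.

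Just outside the definition, 6 neighbouring pairs of an MSL2-only and a CLAMP-only region had centres between 156 and 271 bp apart. The closest, 156 bp, lay 4822 bp from CG33664 (MSL2 peak at X 6379248 to 6379398, CLAMP peak at 6379404 to 6379554). The others were 484 bp from salm, a zinc finger regulator of organ patterning (173 bp apart, MSL2 peak at 2L 11446098 to 11446248), in Ca-alpha1T, a T-type calcium channel (180 bp, MSL2 peak at X 6189703 to 6189853), and in dnc, the cAMP phosphodiesterase Dunce (216 bp, MSL2 peak at X 3326022 to 3326172). The remaining pairs were in CG1695 (230 bp, MSL2 peak at X 20436799 to 20436949) and Vav (271 bp, MSL2 peak at X 19264598 to 19264748).

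Even with these near misses counted, regions found with one antibody were mostly far from any peak of the other. Of the 358 MSL2-only regions, 13 (3.63%) had a CLAMP centre within 1000 bp and 52 (14.5%) within 10000 bp. For the 321 CLAMP-only regions the counts were 19 (5.92%) and 57 (17.8%). The median distance to the other antibody was 26252 bp for MSL2-only regions of X and 179465.5 bp for those of the autosome arms, and 31729 bp and 125368 bp for CLAMP-only regions. X carries 15.2 regions per Mb and the autosome arms 3.80, and the part of this density in the distances was not tested.

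The FLAG precipitation of CLAMP alone offers a yardstick for the offsets, since it reads CLAMP through another tag and without MSL2. The CLAMP peaks of the mixture lay at a median of 21.5 bp from the FLAG CLAMP centre (13 to 30, 152 overlapping pairs). The MSL2 peaks of the mixture lay at 12 bp from it (6 to 22, 83 pairs). The MSL2 to CLAMP median of 18 bp lies between these values, and all 3 intervals overlap. Each set holds overlapping peaks alone, so no distance could exceed 150 bp. The sets also differ in their regions. For regions with both antibodies the median to the FLAG CLAMP centre was 15 bp for MSL2 (52 pairs) and 12 bp for CLAMP (50 pairs). In 50 regions a single FLAG CLAMP peak overlapped both the MSL2 and the CLAMP peak. There the MSL2 centre was nearer to the FLAG centre in 24 regions, the CLAMP centre in 21, and both were equally far in 5, with medians of 14 bp and 12 bp.

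All 3 centres fell within 10 bp of each other in 14 of these 50 regions. They included regions in rdgA, a diacylglycerol kinase of photoreceptors (X 8924857 to 8925010 and 9023433 to 9023590), in Hk, a subunit of the Shaker channel (X 10257626 to 10257778), in Pde9, a cyclic nucleotide phosphodiesterase (X 12880014 to 12880166), and in CanA-14F, a calcineurin catalytic subunit (X 16562460 to 16562611). Others lay in wupA, which encodes troponin I (X 18108131 to 18108283), in grh, the epithelial factor Grainyhead (2R 17814009 to 17814162), in bru3, another gene of the Bruno family (3L 13629592 to 13629744), and in ftz-f1, a nuclear receptor gene (3L 18787971 to 18788123). These regions were picked for their coincidence after the values were seen.

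By chromosome, regions with both antibodies lay on X more often than MSL2-only regions. X held 68 of the 107 arm regions with both antibodies (63.6%, 53.7 to 72.6), 135 of 347 MSL2-only regions (38.9%, 33.7 to 44.3) and 154 of 321 CLAMP-only regions (48.0%, 42.4 to 53.6). X makes up 17.6% of the length of the arms. The interval of the first class lies above those of the other classes, and the bounds against CLAMP-only nearly touch. Per Mb there were 2.89 regions with both antibodies on X and 0.354 on the autosome arms, an 8.16-fold difference, against 2.98-fold for MSL2-only and 4.31-fold for CLAMP-only. Among the autosome arms the first class ran from 0.255 per Mb on 2L (6 regions) to 0.5 on 3L (14 regions), with 7 on 2R and 12 on 3R. On chromosome 4, which is 0.951% of the arm length, 0 of 775 regions lay. By counting error, 3 counts in 775, a share up to 0.387% remains possible.

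**Figure D2:**
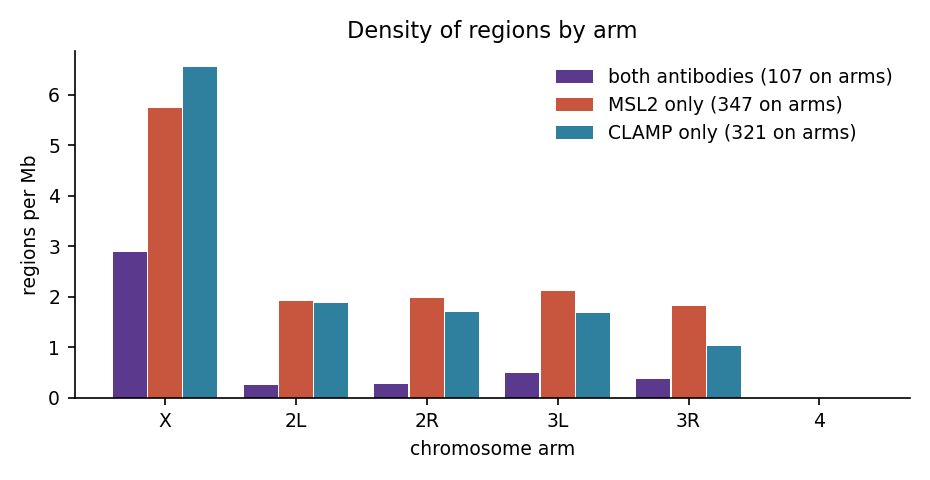
Regions per Mb on each chromosome arm for regions with both antibodies (107), MSL2-only (347) and CLAMP-only regions (321). All classes are densest on X, where regions with both antibodies reach 2.89 per Mb against at most 0.5 on an autosome arm, and chromosome 4 has none.

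The place of a peak in its list moved with these shares. The deposited lists are ordered, by a rank that the headers do not name, and X peaks stood late. In the MSL2 list the X share of arm peaks was 13.9% in the first 25% of the list (7.99 to 21.9) and 88.7% in the last 25% (81.4 to 93.8), and in the CLAMP list 28.3% (20 to 37.9) and 73.1% (63.8 to 81.2). Shared peaks stood early in the CLAMP list, with 47 of 107 in the first 25% (43.9%, 34.3 to 53.9) and 13 of 108 in the last 25% (12.0%, 6.57 to 19.7). In successive 25% parts the MSL2 list held 27, 30, 30 and 21 shared peaks.

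In the first 50% of both lists the X share was 31.8% for both antibodies (18.6 to 47.6), 15.6% for MSL2-only (10.7 to 21.8) and 36.5% for CLAMP-only (29.2 to 44.2). The order against CLAMP-only was lost, and the intervals of both antibodies and MSL2-only no longer lay apart. The share of peaks with a partner, taken over the full lists, was higher on X within each part. Of the MSL2 peaks of the first 50%, 52.4% on X (22 of 42, 36.4 to 68.0) and 18.8% on the autosome arms (34 of 181, 13.4 to 25.2) were shared, and of the second 50%, 28.6% (46 of 161, 21.7 to 36.2) and 7.14% (5 of 70, 2.36 to 15.9). In the CLAMP list these were 51.3% (39 of 76, 39.6 to 63.0) and 24.6% (34 of 138, 17.7 to 32.7), then 19.9% (29 of 146, 13.7 to 27.3) and 7.35% (5 of 68, 2.43 to 16.3). The last pair of intervals overlaps and the other pairs do not.

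**Figure D3:**
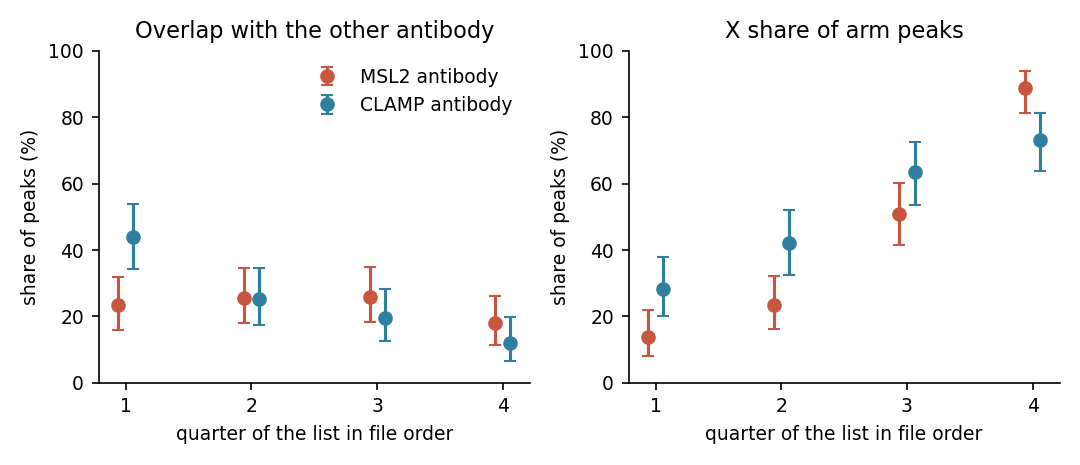
Left, share of peaks that overlap a peak of the other antibody in successive 25% parts of the MSL2 and CLAMP lists in file order. Right, share of the arm peaks that lie on X; bars are exact 95% intervals over peaks. Overlap falls through the CLAMP list from 43.9% to 12.0%, and the X share climbs in both lists.

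Regions with both antibodies were also the ones most often marked by tagged CLAMP without MSL2. The FLAG lists did not enter the choice of classes and have a negative control of their own. They do target CLAMP or its mutant, and the MSL2 peaks were split by peaks of a CLAMP antibody. The contrast with MSL2-only peaks is therefore not independent of the split. Of the MSL2 peaks with a partner, 52 of 108 overlapped a FLAG CLAMP peak (48.1%, 38.4 to 58.0), against 31 of 358 MSL2-only peaks (8.66%, 5.96 to 12.1). Over the whole MSL2 list the share was 17.8%. Of the CLAMP peaks with a partner, 50 of 108 did (46.3%, 36.7 to 56.2), against 102 of 321 CLAMP-only peaks (31.8%, 26.7 to 37.2) and 35.4% of the whole CLAMP list. The intervals lie apart in the MSL2 list and just meet in the CLAMP list.

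The FLAG list of the mutant is shorter, with 224 peaks against 354 for CLAMP, so its lower shares are not compared with those of CLAMP. The order of the classes was the same. A FLAG peak of the mutant lay under 45 of 108 MSL2 peaks with a partner (41.7%, 32.3 to 51.5), 24 of 358 MSL2-only peaks (6.70%, 4.34 to 9.81) and 14.8% of the whole MSL2 list. It lay under 44 of 108 CLAMP peaks with a partner (40.7%, 31.4 to 50.6), 70 of 321 CLAMP-only peaks (21.8%, 17.4 to 26.7) and 26.6% of the whole CLAMP list. Of the 52 regions with both antibodies and a FLAG CLAMP peak, 45 also had a FLAG peak of the mutant. The other 56 regions had neither, and 39 of those lay on X. On the autosome arms 23 of 39 MSL2 peaks with a partner had a FLAG CLAMP peak (59.0%, 42.1 to 74.4) and on X 29 of 68 (42.6%, 30.7 to 55.2), intervals that overlap. In the first 50% of each list the class shares were higher and kept their order (both antibodies by their MSL2 peaks, CLAMP-only and MSL2-only). For FLAG CLAMP they were 66.7% (51 to 80), 51.8% (44 to 59.5) and 11.7%. For the mutant they were 60.0% (44.3 to 74.3), 40.6% (33.1 to 48.4) and 10.1%. There the intervals of both antibodies and CLAMP-only overlapped for each FLAG list.

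**Figure D4:**
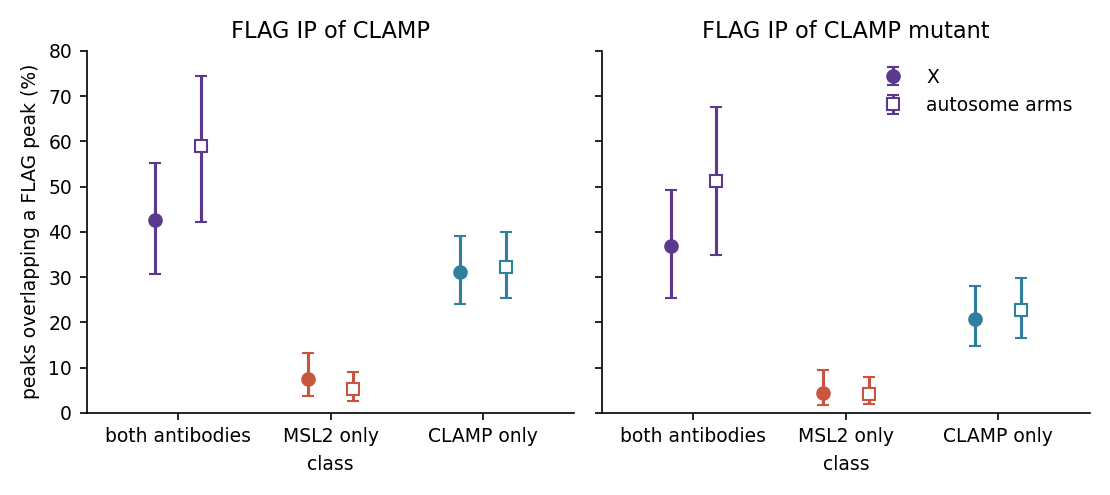
Share of the peaks of each class (MSL2 peaks for both antibodies) that overlap a FLAG peak of CLAMP, left, or of the CLAMP mutant, right, on X (filled circles) and on the autosome arms (open squares); bars are exact 95% intervals over peaks. Regions with both antibodies stand between 36.8% and 59.0% and MSL2-only regions at or under 7.41%.

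Seen from the FLAG CLAMP list, 54 of its 354 peaks were met by both antibodies in the mixture (15.3%, 11.7 to 19.4), 98 by the CLAMP antibody and not the MSL2 antibody (27.7%, 23.1 to 32.7), and 29 by the MSL2 antibody and not the CLAMP antibody (8.19%, 5.55 to 11.6). The other 173 were met by neither (48.9%, 43.6 to 54.2). Of the 29 sites met by the MSL2 antibody and not the CLAMP antibody, 8 lay on X and 11 on the autosome arms, and the others on Y. Of the 224 FLAG peaks of the mutant, 47 were met by both antibodies (21.0%, 15.8 to 26.9), 67 by the CLAMP antibody and not the MSL2 antibody (29.9%, 24 to 36.4), 22 by the MSL2 antibody and not the CLAMP antibody (9.82%, 6.26 to 14.5) and 88 by neither (39.3%, 32.8 to 46).

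The Y chromosome held 12 regions, 1 with both antibodies and 11 MSL2-only. Of the 11, 10 overlapped a FLAG CLAMP peak and 9 a FLAG peak of the mutant, made without MSL2. They included regions in the fertility factor gene kl-5 (Y 124276 to 124426 and 132521 to 132671), in ORY (Y 3562514 to 3562664) and in CCY (Y 3652946 to 3653096). Without Y the MSL2-only shares with a FLAG peak were 6.05% (3.78 to 9.10) for CLAMP and 4.32% (2.44 to 7.03) for the mutant (a setting chosen after the values had been seen). The region with both antibodies (Y 860558 to 860710, 9182 bp from Su(Ste):CR42422) overlapped neither FLAG list.

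Between lists of unlike antibodies that do not share a control, the one-antibody classes had few partners. Of the 321 CLAMP-only peaks, 3 overlapped a peak of MSL2 alone (0.935%, 0.193 to 2.71), against 14.2% of the whole CLAMP list. They lay in CG1695 (X 20437029 to 20437179) and in msl-2 (2L 3463773 to 3463923 and 3465142 to 3465292). Of the 358 MSL2-only peaks, 2 overlapped a peak of CLAMP alone (0.559%, 0.0677 to 2.00), against 3.86% of the whole MSL2 list. One lay in dnc (X 3326022 to 3326172) and the other on Y (860203 to 860353). The class split itself used lists of the same 2 antibodies with the same controls, so these counts are not independent of it.

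Some regions with both antibodies recurred across the series and others were seen in this mixture alone. Lists of one antibody share their negative control, so recurrence is given here as a fact of each region. The region in para, the voltage-gated sodium channel gene (X 16501654 to 16501808, offset 4 bp), and one 201 bp from CG34386 (2R 18062061 to 18062214, offset 3 bp) were in 6 of the other 7 lists. Those in 5 lists lay in CG34408, mei-P26, needed for germ cells to differentiate (X 9174113 to 9174280), Tomosyn, an inhibitor of synaptic vesicle release (X 12648229 to 12648396), and Rbp6, of the Musashi family of RNA binders (3L 17159653 to 17159817), and 34366 bp from CG43245 (3L 10737384 to 10737559). Among those in 4 lists were acj6, which encodes a neuronal POU-domain factor (X 15356678 to 15356829, offset 1 bp), CG42699 (X 5788778 to 5788929, 1 bp), trh, the trachealess factor (3L 378058 to 378269, 61 bp), and bru2, a relative of the RNA-binding Bruno (2L 12366150 to 12366352, 52 bp).

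None of the other lists held 179 of the 358 MSL2-only regions (50%) and 206 of the 321 CLAMP-only regions (64.2%). Among regions with both antibodies this was so for 23 of 108 (21.3%), 17 of them on X. They included regions in cac, the presynaptic calcium channel gene (X 11981964 to 11982116, offset 2 bp), in sw, a dynein intermediate chain (X 20231563 to 20231714, 1 bp), in Raf, the kinase of the MAP kinase cascade (X 2343529 to 2343732, 53 bp), and in NFAT (X 13624964 to 13625136, 22 bp). On autosomes they included pum, the translational repressor Pumilio (3R 9184574 to 9184728, 4 bp), mbl, the splicing factor Muscleblind (2R 17304073 to 17304266, 43 bp), and hth, a homeobox gene (3R 10516953 to 10517171, 68 bp). A region with both antibodies joins 2 peaks and shares a control with the lists of either antibody. A one-antibody region is 1 peak and shares a control with the lists of 1 antibody. The 3 shares are therefore not compared between classes.

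Most regions lay in gene bodies, and CLAMP-only regions less often so. Of the arm regions, 98 of 107 with both antibodies (91.6%, 84.6 to 96.1), 299 of 347 MSL2-only (86.2%, 82.1 to 89.6) and 240 of 321 CLAMP-only regions (74.8%, 69.6 to 79.4) overlapped a gene body. Gene bodies cover 69.6% of the arms and 74.6% of X, and the CLAMP-only share is close to this coverage. The intervals of the first and second classes overlap, and that of CLAMP-only lies below both.

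The genes were long. Protein-coding genes with a region of both antibodies numbered 87 (54 on X) with a median body of 31.3 kb. MSL2-only regions touched 292 genes with a median of 14.2 kb and CLAMP-only regions 187 with a median of 36.3 kb, where the median over all 13922 protein-coding genes of the arms is 2.16 kb. A region in the body was found for 0.625% of all protein-coding genes (both antibodies), 2.10% (MSL2-only) and 1.34% (CLAMP-only), and for 3.53% with any class. On X these shares were 2.46%, 5.14%, 4.01% and 9.29%, and on the autosomes 0.281%, 1.53%, 0.844% and 2.45%. Among the 1012 genes of at least 20 kb they were 5.53%, 11.6%, 12.9% and 23.9%. A longer gene offers more bases to overlap, so the counts of gene groups below are set beside these shares.

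At the level of genes, 118 protein-coding genes held both an MSL2 and a CLAMP peak, and 31 of them without any shared region. The 31 genes had a median body of 69.2 kb, and 20 lay on X. They included Eip75B, an ecdysone-induced nuclear receptor gene (3L), with 2 MSL2-only and 5 CLAMP-only regions, and dnc (X), with 3 and 3. The gap-junction gene shakB (X) had 1 and 4, Ca-alpha1T (X) 2 and 2, and SK, a calcium-activated potassium channel gene (X), 2 and 1.

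All 3 classes occurred in 9 protein-coding genes. Sh held the most regions of any gene, 10 in a body of 139 kb. Its 4 regions with both antibodies lay at X 17963471 to 17963654, 17997305 to 17997455, 18023722 to 18023972 and 18035899 to 18036061, with offsets of 33, 0, 100 and 12 bp, and the third also overlaps the gene CG6867. Its MSL2-only regions began at 17956209, 18052378 and 18060668 and its CLAMP-only regions at 17926738, 18008580 and 18050879. The other genes with all 3 classes were hth (6 regions), eag (5), Cph, Smr, a corepressor, Neto, a glutamate receptor partner, mbl and msl-2 (4 each) and Dop2R, a dopamine receptor gene (3).

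Other genes leaned to one class. The zinc finger gene mamo had 4 regions with both antibodies and 3 CLAMP-only, and the body of rdgA 3 with both antibodies and no other. mgl, the endocytic receptor Megalin, had 7 CLAMP-only regions and no MSL2 peak, and kirre, an adhesion molecule of myoblast fusion, had 4. The ecdysone-response gene br had 3 CLAMP-only regions, which also lie in the body of Mur2B. brp, the active zone protein Bruchpilot, had 3 MSL2-only regions in 4518 bp (2R 9517060 to 9521577).

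**Figure D5:**
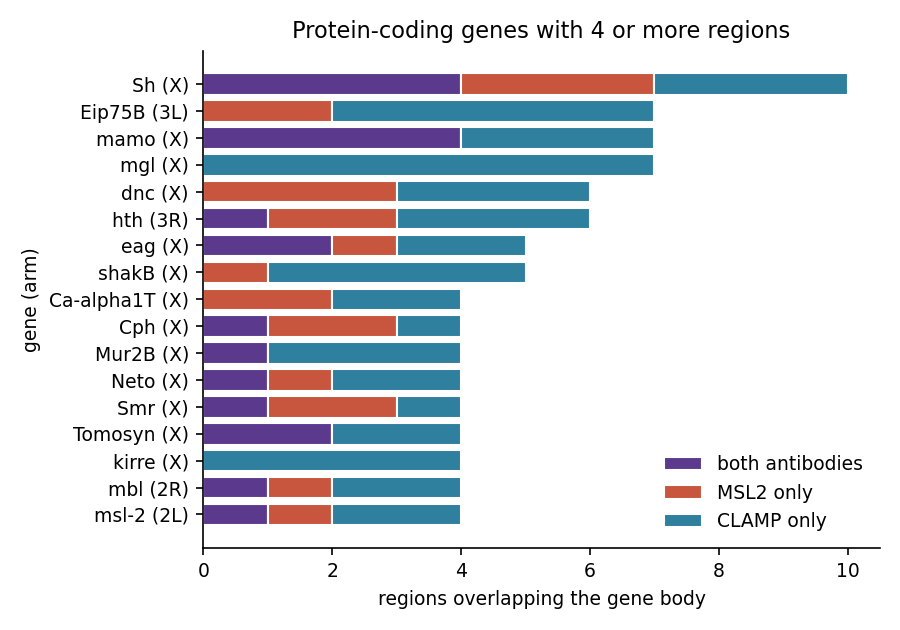
Number of regions of each class that overlap the body of a protein-coding gene (arm in brackets), for the 17 genes with at least 4 regions. Sh leads with 10 regions of all 3 classes, whereas the 7 regions of mgl are all CLAMP-only.

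Regions gathered in short stretches, more so on X. When regions within 10 kb of each other were joined, 149 of 357 regions of X (41.7%) and 68 of 418 of the autosome arms (16.3%) had a neighbour. By class these were 41 of 108 regions with both antibodies (38.0%), 68 of 358 MSL2-only (19.0%) and 112 of 321 CLAMP-only (34.9%). X has 15.2 regions per Mb and the autosome arms 3.80, and the part of this density in the clustering was not tested. The tightest stretch of 3 regions spanned 990 bp in CG42699 (X 5788317 to 5789306), 1 with both antibodies between 2 CLAMP-only. In Dop2R 1 region of each class lay in 1620 bp (X 20023466 to 20025085). In Tomosyn 2 with both antibodies and 2 CLAMP-only regions spanned 8932 bp, and in dnc 3 MSL2-only and 2 CLAMP-only regions spanned 9397 bp.

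Over all protein-coding genes of the arms, 3.53% had a region in the body and 0.625% one with both antibodies. The 11 genes listed for dosage compensation and GA-binding proteins have a median body of 5.08 kb. Of these 11 genes, 3 had a region in the body, each with at least 1 of both antibodies. Besides roX2 these were msl-2 and psq, which encodes Pipsqueak, a GAGA-binding factor (2R 10583252 to 10583420, offset 18 bp). msl-2, the gene of the added protein MSL2, held 4 regions in 1952 bp of 2L, with both antibodies at 3463341 to 3463492 (offset 1 bp), MSL2-only at 3464431 to 3464581 and CLAMP-only at 3463773 to 3463923 and 3465142 to 3465292. The part of the added protein preparation in these regions was not tested. Near mof, the acetyltransferase gene of the complex, 1 MSL2-only region lay within 2 kb (X 5872865 to 5873015), in the body of GAA1. The bodies of roX1, msl-1, msl-3, mle, Clamp, JIL-1 and Trl, the GAGA factor gene, held no region.

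Of 51 listed ion channel and receptor genes, 17 had a region in the body, 11 of the 18 on X and 6 of the 33 on autosomes. Regions with both antibodies were in 6, all on X: para, Sh, eag, Hk, cac and iav, a channel gene of hearing neurons (X 6816473 to 6816624, offset 1 bp). Over all protein-coding genes 9.29% on X and 2.45% on autosomes had a region, at a median body of 2.16 kb. For regions with both antibodies these shares were 2.46% and 0.281%. The median body of the listed X genes is 27.2 kb and of the listed autosomal genes 14.5 kb. Among protein-coding genes of at least 20 kb on all arms, 23.9% had a region and 5.53% one with both antibodies. Channel genes with one-antibody regions alone included Shal, a potassium channel gene (3L, 1 MSL2-only), nAChRalpha6, a nicotinic receptor subunit (2L, 3 CLAMP-only), Rdl, a GABA receptor subunit (3L, 1 of each) and ogre, an innexin (X, 1 MSL2-only).

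Of 26 synaptic and neuronal signalling genes, 8 had a region, and the 3 with both antibodies, Tomosyn, hiw, whose ubiquitin ligase limits synaptic growth (X 15052062 to 15052246, offset 34 bp), and rdgA, all lay on X. The 26 genes have a median body of 40.4 kb. Of all protein-coding genes of at least 20 kb, 23.9% had a region and 5.53% one with both antibodies. Of 14 RNA-binding protein genes 8 had a region and 5 one with both antibodies: mei-P26 and fne, an ELAV family gene (X 12926202 to 12926416, offset 64 bp), on X, and bru2, bru3 and Rbp6 on autosomes. The listed RNA-binding genes have a median body of 45.4 kb.

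Of 49 transcription regulator genes, with a median body of 37 kb, 28 had a region in the body. CLAMP-only regions were in 18 of them (34 regions), MSL2-only in 13 (19 regions) and regions with both antibodies in 8 (11 regions). Of all protein-coding genes of at least 20 kb, 23.9% had a region of any class. The shares were 12.9% for CLAMP-only, 11.6% for MSL2-only and 5.53% for both antibodies. The 8 were mamo, acj6, Cph, OdsH and Smr on X and trh, hth and ftz-f1 on autosomes. CLAMP-only genes included twi, the mesoderm factor Twist (2R, 3 regions), en, the segment factor Engrailed (2R, 1), Antp, a Hox gene (3R, 2), and Sp1 and oc, a zinc finger and a head homeobox gene (X, 2 each). MSL2-only genes included run, the pair-rule gene Runt (X, 2), rn, a zinc finger gene of limb development (3R, 2), chinmo, a temporal factor of neurons (2L, 1), and CrebB, a cAMP-response factor (X, 1). The lists were drawn up with earlier results of these data known and their genes are long, and they were not tested for enrichment.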

How the data were processed

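Per the submitters' processing notes, the tools were Bowtie2 (2.2.9), SAMtools (1.9) and HOMER (4.9), with coordinates on dm6. Per the file headers, the authors ran HOMER findPeaks (factor style) after the libraries of a group had been merged, with the merged negative control of that antibody as input. Peaks passed a 10-fold cutoff against the control, a 4-fold cutoff against the 10000 bp around them, a Poisson p-value of 1e-04 for each, and a false discovery rate of 0.001, and kept 300 bp from each other. The deposited score is 1 in every line, so positions are the only measurement. Starts were converted to 1-based coordinates. Overlaps, offsets and exact intervals were computed with Python 3.11.15, numpy 2.4.6 and scipy 1.17.1, and figures drawn with matplotlib 3.10.9. The overlap code was checked on simulated lists. Gene positions came from a RefSeq table of Release 6 plus ISO1 MT (dm6), which gives no strand, exons or sequence, so motifs, promoters and nearest gene starts were not analysed here. A region is named by the shortest protein-coding body it overlaps, or the nearest gene.

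Named regions were, per class and separately for X and autosome arms, the 8 in the most other lists, then the widest; the 5 smallest and largest offsets and overlaps; genes with several regions; and regions in the listed genes. Further regions named as exact coincidences, near misses, mixture-specific, on Y or from the gene lists were picked after their values were seen. The members and lists were chosen with earlier results of these data known. Arm lengths run to the last base of a gene or peak.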

Additional observations from a re-analysis of the deposited data

How the results depend on the processing

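Of 88 values of 17 results recomputed under other settings, 62 stayed within the counting interval of the reported value (counts, within 1.5 times) and 26 moved. Some of the 62 could not move. Centres within 150 bp is the same rule as 1 bp of overlap for peaks of one fixed width. Keeping pairs where neither peak is in another pair removed none, and leaving out Y does not change CLAMP-only, which has no Y region. No direction between classes turned except the X share of both antibodies against CLAMP-only in the first 50% of each list. No paired analysis was possible because each group has 1 merged list, and for the same reason no library could be left out.

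With reciprocal 50% overlap 89 pairs were left, 19.1% of MSL2 and 20.7% of CLAMP peaks, and CLAMP-only peaks overlapped FLAG peaks at 25.6% for CLAMP and 16.5% for the mutant. The setting changes both the classes and the FLAG overlap, and the cause was not tested. Centres within 500 bp gave 116 MSL2 peaks with a partner. On X 33.5% and 30.6%, and on the autosome arms 15.5% and 18.9%, of the MSL2 and CLAMP peaks were shared. On the autosome arms, shares with a FLAG CLAMP peak were 59.0% (both antibodies) and 5.19% (MSL2-only), and with the mutant 4.25% (MSL2-only). Without Y, 4.32% of MSL2-only peaks overlapped a mutant peak.

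The first 50% of each list gave 45 pairs (19.3% and 20.9%), a median offset of 8 bp and X shares of 31.8%, 15.6% and 36.5% for both antibodies, MSL2-only and CLAMP-only. There the shares with a FLAG CLAMP peak were 66.7% and 51.8% (both antibodies and CLAMP-only), and with the mutant 60.0%, 10.1% and 40.6%. The cause was not tested. Gene bodies extended by 1 kb held 90.5% of MSL2-only and 81.3% of CLAMP-only regions, as wider bodies must. A stricter score could not be applied, as the score does not vary, and nearest gene starts were not run. The CLAMP list has fewer tags, which limits what its absences show.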
